A study of Mus musculus with 44 samples.

Results

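The report describes the strain difference in the striatum of adult female mice, measured on Affymetrix expression arrays of 5 mice of the strain C57BL/6J (B6, animals 61 to 65) and 5 of the strain DBA/2J (D2, animals 71 to 75). These 10 arrays were taken by animal number from the 44 samples analysed, and the comparisons were run with and without the array of animal B6 64, whose values lay between the strains. The study set array platforms and RNA sequencing side by side on striatal RNA of these inbred strains, and the sequencing libraries were not analysed here. All mice were naive, none carried an engineered allele or received an agent, and 1 array was hybridised per mouse. The same table holds 5 B6 and 5 D2 males (animals 66 to 70 and 76 to 80), and a separate set of Illumina arrays holds 12 males of each strain. These served as other mice of the same strains. A p-value here weighs a difference against how much mice of 1 strain vary, the labels give no age beyond adult and no extraction or hybridisation batch, and 5 arrays a strain limit the precision.

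The striatum is the main input station of the basal ganglia, and most of its neurons are GABAergic medium spiny neurons that receive dopamine. Those of the direct pathway carry the dopamine receptor Drd1 and the peptide precursor Tac1, and those of the indirect pathway carry Drd2 and Penk. B6 and D2 are inbred strains that differ at many sequence variants and in their responses to ethanol, opioids and stimulants, and crosses between them are widely used to map the genes behind expression and behaviour. An inbred mouse is alike at both copies of each gene, so that mice of 1 inbred strain are taken to share 1 genotype. The genotypes of these mice were not measured here.

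The value of a probeset, made by the authors with RMA, summarizes its probes after background correction and quantile normalization and is on a log2 scale, so that a difference of 1 is a doubling. The table lists 45101 probesets, among them 64 controls, and 38870 others with values. The upper 50% of these by mean over all 20 arrays were tested, 19437 probesets at 6.19 or above that stand for 10778 genes. A probeset can pass this filter through the values of 1 strain alone. Array medians were 6.16 to 6.19 in B6 and 6.17 to 6.21 in D2 females. Xist, the RNA that coats the inactive X chromosome, was at 9.46 to 10.70 in the 10 females and at 3.42 to 3.89 in males. Eif2s3y and Kdm5d, which lie on the Y chromosome, were at 3.05 to 3.45 and 3.28 to 3.61 in these 10 arrays against at least 8.54 and 7.29 in males. The arrays are therefore those of females, as labelled.

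Defining markers of the striatum were bright in every array, and none passed the threshold. Ppp1r1b, the gene of DARPP-32, which dopamine turns into an inhibitor of protein phosphatase, had values of 11.74, 11.68, 11.60, 11.72 and 11.42 in B6 females and 11.79, 11.55, 11.48, 11.74 and 11.71 in D2 females, with B6 animals given from 61 to 65 and D2 animals from 71 to 75 here and throughout, so that the fourth B6 value is that of B6 64. The values of both strains covered the same range, and the difference, always B6 minus D2, was -0.02 ± 0.083 (SE, adjusted p = 0.946) with B6 64 and -0.04 ± 0.088 (adjusted p = 0.862) without it. Drd1 differed by 0.10 ± 0.12 (SE, adjusted p = 0.759) with B6 64 and 0.17 ± 0.11 (adjusted p = 0.463) without it, and Tac1 by 0.06 ± 0.072 (SE, adjusted p = 0.791) with B6 64 and 0.04 ± 0.077 (adjusted p = 0.856) without it. For the indirect pathway, Drd2 differed by 0.25 ± 0.094 (SE, adjusted p = 0.197) with B6 64 and 0.25 ± 0.10 (adjusted p = 0.206) without it, and Penk by 0.21 ± 0.066 (SE, adjusted p = 0.0942) with B6 64 and 0.21 ± 0.071 (adjusted p = 0.113) without it. Penk alone of these 5 genes did not overlap, at 12.45 to 12.64 in B6 and 12.20 to 12.44 in D2 females. Over all tested probesets, the strains did not overlap at 6.17% with B6 64 and at 10.1% without it. The threshold was an adjusted p under 0.01 in limma after Benjamini-Hochberg adjustment over the 19437 probesets. Where 2 differences of a probeset or list are given together, the first is with B6 64 and the second without it.

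Array B6 64 stood apart from the other B6 females in these arrays. Its place between the strains was measured at 245 probesets chosen on the males alone, 115 of them higher in B6 and 130 higher in D2 males. Values were taken out of the log scale and set to 0 at the D2 male mean and to 1 at the B6 male mean. The median position of B6 64 was 0.534, with quartiles of 0.391 and 0.661. The other B6 females had medians of 0.985, 0.991, 0.955 and 1.0, and the D2 females had medians of 0.003, -0.002, 0.048, -0.007 and 0.006. B6 64 thus lay near the midpoint, and each of the other 9 arrays lay next to the males of its own strain. At 191 of the 245 probesets (78%) its position was between 0.25 and 0.75, against 14 to 33 probesets in each other B6 female and 13 to 35 in each D2 female. It lay farther toward D2 than all other B6 females at 223 of 245 probesets, while each of those 4 did so at 2 to 12.

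**Figure D1:**
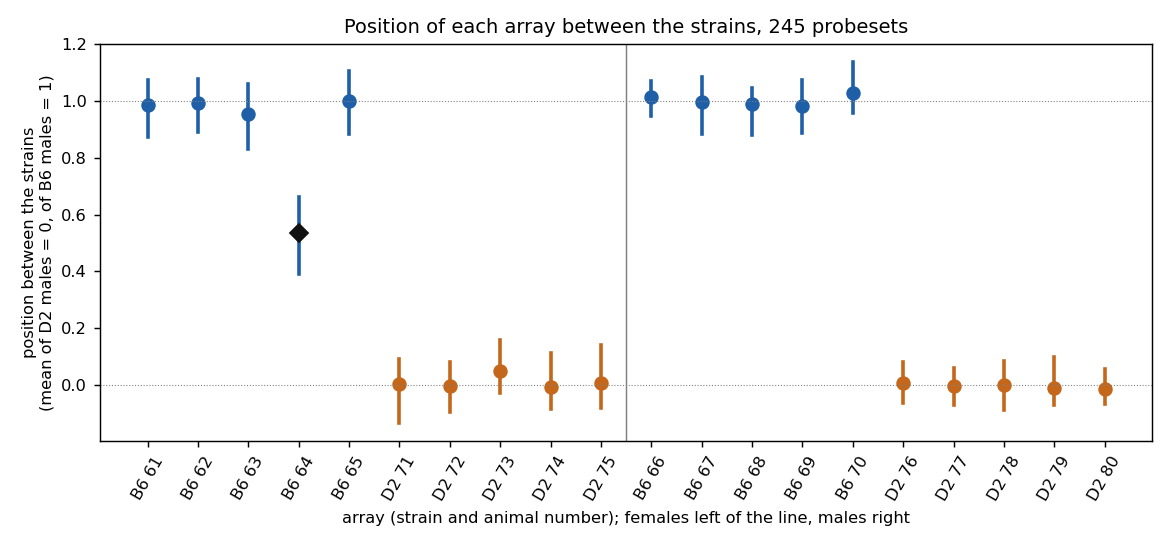
Position between the strains of each of the 20 Affymetrix arrays (vertical axis, no unit), females left and males right of the line, at 245 probesets chosen on males, with 0 the D2 male mean and 1 the B6 male mean of antilog values. Points are medians and bars run between the quartiles over probesets, and B6 64 (diamond) has a median of 0.534, the other B6 females of 0.955 to 1.0 and the D2 females of -0.007 to 0.048.

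The intermediate values of B6 64 were spread over the genome. The median position of this array was 0.572 at the probesets higher in B6 males and 0.485 at those higher in D2 males. On the 16 chromosomes with at least 5 of these probesets it ran from 0.292 on chromosome 8 to 0.682 on chromosome 5. The lowest chromosome median of any other B6 female was 0.876, and the highest of any D2 female was 0.119, so that B6 64 matched neither strain on any of these 16 chromosomes. The remaining chromosomes had too few of these probesets to be read. On the log2 scale it was lower than the mean of the other B6 females by a median of -0.51 at probesets higher in B6 and above it by 0.80 at probesets higher in D2. The other 4 B6 females differed from the rest by -0.06 to 0.04 and by -0.01 to 0.03.

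The array moved the spread of the B6 group more where D2 was the higher strain. At the 130 probesets higher in D2 males, the median SD of B6 females was 0.424 with B6 64 and 0.176 without it, against 0.177 in D2 females. At the 115 higher in B6 males it was 0.283 and 0.152, against 0.240 in D2 females. Over 13043 probesets with an adjusted p above 0.5 for strain in males, the SDs were 0.129 and 0.113, against 0.126. The extra spread of B6 64 was therefore largest at probesets that differ between the strains, and smaller elsewhere.

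**Figure D2:**
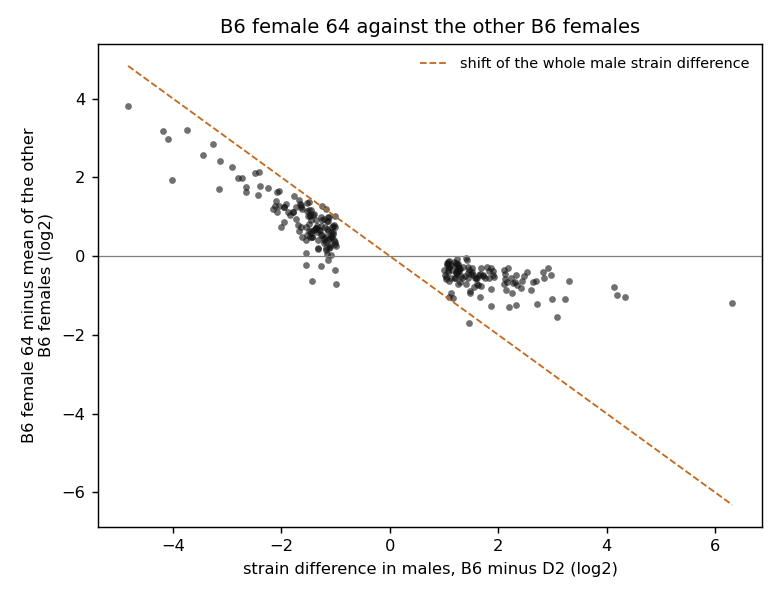
Difference of B6 64 from the mean of the other 4 B6 females on the log2 scale (vertical axis) against the strain difference in males, B6 minus D2 (horizontal axis), at the 245 probesets chosen on males. The points slope downward, with a median of -0.51 where B6 is higher and of 0.80 where D2 is higher, and lie mostly between no shift and the line for a shift of the whole male strain difference.

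Between B6 and D2 females, 616 of 19437 probesets (3.17%) passed the threshold, and 339 of them were higher in B6 against 277 in D2. Without B6 64, 822 probesets (4.23%) passed, with 383 higher in B6 against 439 in D2. More probesets were higher in B6 with this array and more in D2 without it, and 584 were called in both fits. The second of these orders depended on the scaling. Without B6 64 and with quantile normalization added, 425 probesets were higher in B6 and 384 in D2. With arrays centred on their medians, also without B6 64, these counts were 401 and 397. The first order depended on the fit, since with B6 64 and array weights 431 were higher in B6 and 438 in D2. Of the 238 called only without B6 64, 171 were higher in D2, and of the 32 called only with it, 23 were higher in B6. Leaving out other arrays lowered the count, to 376 without B6 62 and to 402 without B6 65. The differences were modest for most probesets, with a median size of 0.75 among the 616 against 0.08 among all tested. Of the 616, 195 differed by at least 2-fold and 202 by less than 1.5-fold, and without B6 64 these counts were 245 and 308 of 822. All B6 females were on 1 side of all D2 females at 598 of the 616, against 6.17% of all probesets, and at 821 of the 822 without B6 64, against 10.1%. The calls were made on these same values, which favours separation, so this contrast is no separate evidence.

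Counted by gene, through the probeset with the lowest p in the fit with B6 64, 439 genes (4.07%) were called. Of these, 235 (2.18%) were higher in B6 and 204 (1.89%) higher in D2. At the same probesets without B6 64 there were 580 genes (5.38%), 262 (2.43%) higher in B6 and 318 (2.95%) higher in D2. In both fits 418 genes were called. The gene count was 271 without B6 62 and 290 without B6 65. With B6 64 kept, array weights gave 302 genes higher in B6 and 314 in D2. Reading each gene from its probeset with the highest mean gave 140 and 149. RNA of the whole dissected tissue was measured, so that fewer cells of a type and less RNA per cell cannot be told apart.

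The largest difference of any probeset was at one without a gene symbol in the annotation, 6.00 with B6 64, 6.23 without it and 6.32 in males, which is given after its value was seen. Of the named genes, the largest difference higher in B6 belonged to Tia1, which binds RNA and helps to form stress granules. Its probeset had values of 9.24, 9.04, 9.16, 8.09 and 9.07 in B6 females and 5.00, 4.94, 4.54, 4.64 and 4.59 in D2 females, on a log2 scale. Both strains were tight apart from B6 64, about 1 unit below the other B6 females, and they did not overlap. The difference was 4.18 ± 0.19 (SE, adjusted p = 1.76e-07) with B6 64 and 4.39 ± 0.10 (adjusted p = 5.33e-10) without it, an 18.1-fold and a 20.9-fold higher value. In males it was 4.33 (adjusted p = 3.3e-10). The other 5 tested probesets of Tia1 were not called and differed by -0.25 to 0.03 with B6 64 and by -0.16 to 0.11 without it, and the Illumina probe, in other mice, differed by -0.19 (adjusted p = 0.00846), in the opposite direction.

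Snhg14, a long noncoding RNA that hosts small nucleolar RNAs of an imprinted region, had values of 10.82, 10.47, 10.57, 9.64 and 10.61 in B6 females and 6.97, 6.48, 6.6, 5.91 and 5.51 in D2 females. The difference was 4.12 ± 0.28 (SE, adjusted p = 3.29e-06) with B6 64 and 4.32 ± 0.25 (adjusted p = 5.4e-07) without it, or 17.4-fold and 19.9-fold. D2 animals spread from 5.51 to 6.97 and stayed below every B6 female, and the second tested probeset of Snhg14 differed by 0.12 and 0.30 and was not called. Tmem267, a transmembrane protein gene with 1 tested probeset, had values of 8.47, 8.49, 8.64, 7.94 and 9.31 in B6 females and 4.42, 4.30, 5.10, 3.67 and 4.91 in D2 females. The strains were far apart in each array, with a difference of 4.09 ± 0.28 (SE, adjusted p = 3.47e-06) with B6 64 and 4.25 ± 0.27 (adjusted p = 1.39e-06) without it. On Illumina arrays it differed by 0.24 (adjusted p = 0.000430).

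Kcnq5, a voltage-gated potassium channel of the M-current, had values of 8.54, 8.68, 8.55, 7.44 and 8.36 in B6 females and 4.55, 4.56, 5.01, 4.71 and 4.63 in D2 females. B6 64 was the lowest B6 array and still above all D2 arrays, with a difference of 3.62 ± 0.20 (SE, adjusted p = 6.11e-07) with B6 64 and 3.84 ± 0.10 (adjusted p = 1.07e-09) without it. Its other probesets were not called, the first at -0.18 and -0.19 and the other at 0.03 and 0.01, and the Illumina probe differed by 0.0351 (adjusted p = 0.453). Ptprg, a receptor tyrosine phosphatase, showed the same layout with values of 8.71, 8.39, 8.79, 7.11 and 8.70 in B6 females and 5.59, 5.46, 5.85, 5.43 and 5.97 in D2 females. Its difference was 2.68 ± 0.28 (SE, adjusted p = 0.000122) with B6 64 and 2.99 ± 0.13 (adjusted p = 3.81e-08) without it, with 1 of 3 probesets called, the others at -0.04 and -0.11 and at 0.06 and 0.17. In both genes only 1 of several probesets separated the strains.

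Sox11, a transcription factor of developing neurons, had values of 9.64, 9.48, 9.94, 9.05 and 9.66 in B6 females and 6.03, 6.13, 6.7, 6.18 and 6.2 in D2 females. The difference was 3.32 ± 0.16 (SE, adjusted p = 1.76e-07) with B6 64 and 3.44 ± 0.13 (adjusted p = 1.81e-08) without it, 9.96-fold with B6 64, and no array of either strain came near the other. Of its 4 tested probesets, 3 were called, and they did not run the same way. A further probeset differed by 0.49 and 0.51, while another was higher in D2, at -1.09 and -1.23. Pttg1, which encodes securin, the inhibitor of separase in dividing cells, had values of 9.67, 10.05, 9.77, 9.54 and 9.86 in B6 females and 6.7, 6.81, 6.58, 7.0 and 7.21 in D2 females, through its 1 tested probeset. B6 64 was only slightly below the other B6 females here, and the difference was 2.92 ± 0.13 (SE, adjusted p = 1.66e-07) with B6 64 and 2.98 ± 0.13 (adjusted p = 4.13e-08) without it.

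Rpgrip1, a protein of the photoreceptor cilium, was at 9.53 ± 0.20 in B6 and 6.79 ± 0.25 in D2 (mean ± SD, n = 5 each) and differed by 2.7 ± 0.13 (SE, adjusted p = 1.76e-07) with B6 64 and 2.82 ± 0.12 (adjusted p = 3.81e-08) without it. Camk2n1, an inhibitor of the calcium-dependent kinase CaMKII, was at 10.43 ± 0.26 in B6 and 7.77 ± 0.18 in D2. It differed by 2.66 ± 0.13 (SE, adjusted p = 1.76e-07) with B6 64 and 2.8 ± 0.097 (adjusted p = 1.09e-08) without it. Its other probeset was brighter, with means of 13.19 in B6 and 13.54 in D2. That probeset was called the other way with B6 64, at -0.35 (adjusted p = 0.00898), and missed the threshold without it (adjusted p = 0.0120). The Illumina probe of Camk2n1 differed by -0.14 (adjusted p = 0.359). Pdxdc1, a gene with a pyridoxal-dependent decarboxylase domain, had all 3 tested probesets called, at 2.66, 0.90 and -3.34 with B6 64 and at 2.8, 0.93 and -3.93 without it. The same gene was thus higher in B6 or in D2 depending on the probeset read. Genes with called probesets in both directions numbered 8, among 49 with at least 2 called probesets.

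**Figure D3:**
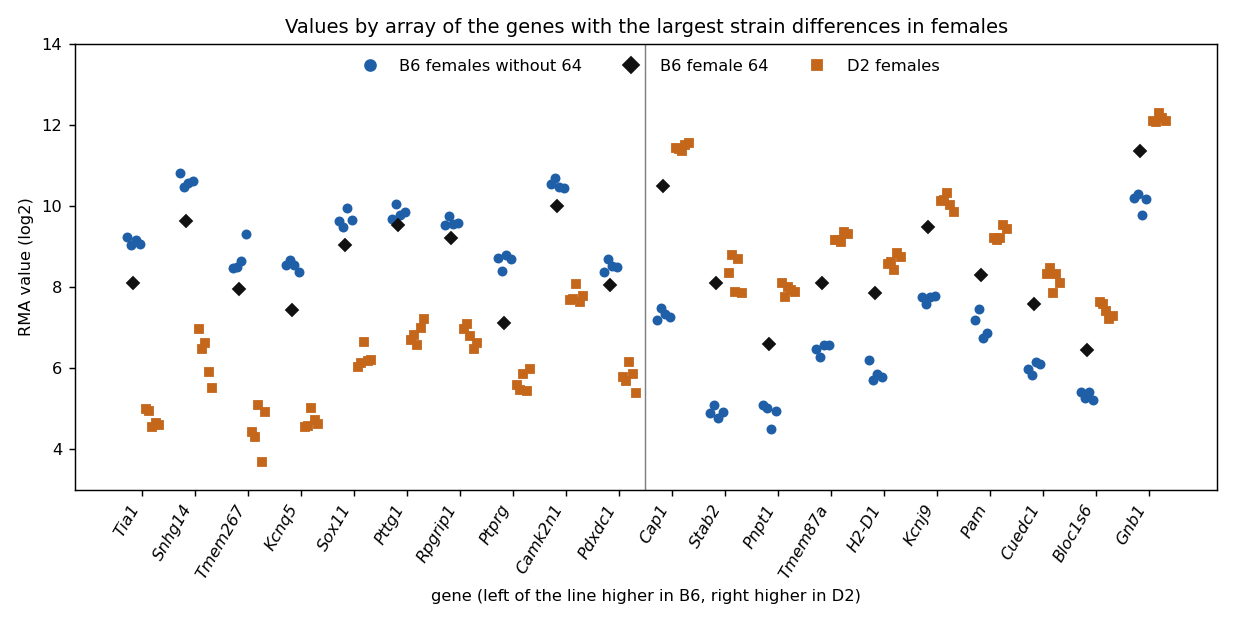
Log2 RMA values of the 10 genes with the largest differences in each direction, 1 point per female array, with circles for the B6 females other than B6 64, a diamond for B6 64 and squares for D2 females. B6 64 lies on the D2 side of the other B6 females in all 20 genes and within the D2 range only in Stab2.

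Among genes higher in D2, Cap1 stood first, an actin regulator that works with cofilin. Its values were 7.18, 7.49, 7.33, 10.49 and 7.26 in B6 females and 11.44, 11.40, 11.36, 11.51 and 11.56 in D2 females. B6 64 was 3 log2 units above the next B6 array and within about 1 unit of the D2 arrays, and the other 4 B6 females were between 7.18 and 7.49. The difference was -3.50 ± 0.52 (SE, adjusted p = 0.00164) with B6 64 and -4.14 ± 0.076 (adjusted p = 1.39e-10) without it, that is 11.3-fold and 17.6-fold. In males it was -4.18 (adjusted p = 2.43e-07), close to the female value without B6 64. Both Cap1 probesets were called, the other at -3.70 and -4.47, and the Illumina probe differed by -0.79 (adjusted p = 0.000270).

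Stab2, a scavenger receptor for hyaluronan best known from sinusoidal endothelium, had values of 4.88, 5.09, 4.76, 8.11 and 4.91 in B6 females and 8.34, 8.79, 7.88, 8.69 and 7.86 in D2 females. B6 64 lay inside the D2 range, so that the strains overlapped with it and were far apart without it. The difference was -2.76 ± 0.55 (SE, adjusted p = 0.00983) with B6 64 and -3.40 ± 0.19 (adjusted p = 4.64e-07) without it. With B6 64 kept, the call was lost when any single 1 of B6 61, 62, 63 or 65, or D2 71, 72, 73, 74 or 75 was left out (adjusted p = 0.0163 to 0.0341). It was also lost with a trended and robust variance model. Males differed by -3.75 (adjusted p = 8.97e-08), and the Illumina probe by -0.68 (adjusted p = 6.97e-06).

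Kcnj9, which encodes the potassium channel subunit GIRK3 opened by G protein beta-gamma dimers, had values of 7.75, 7.58, 7.75, 9.47 and 7.77 in B6 females and 10.13, 10.14, 10.33, 10.03 and 9.85 in D2 females. B6 64 was again far above the other B6 females, all between 7.58 and 7.77, and just below the D2 range. The difference was -2.03 ± 0.30 (SE, adjusted p = 0.00152) with B6 64 and -2.38 ± 0.092 (adjusted p = 2.4e-08) without it, and -2.65 (adjusted p = 4.76e-06) in males. Of its other probesets, that at -1.07 with B6 64 and -1.31 without it was called only without it, and the last, at -0.15 and -0.16, in neither fit. Gnb1, a beta subunit of the G protein dimer that opens such channels, had values of 10.20, 10.29, 9.79, 11.36 and 10.18 in B6 females and 12.11, 12.08, 12.30, 12.18 and 12.11 in D2 females. Its difference was -1.79 ± 0.22 (SE, adjusted p = 0.000464) with B6 64 and -2.04 ± 0.099 (adjusted p = 1.4e-07) without it, the second probeset was also called at -1.53 and -1.82, and the Illumina probe differed by -0.75 (adjusted p = 5.99e-08). Both genes were higher in every D2 female than in every B6 female.

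H2-D1, a class I histocompatibility gene, had values of 6.2, 5.70, 5.86, 7.86 and 5.78 in B6 females and 8.58, 8.62, 8.43, 8.84 and 8.73 in D2 females. The difference was -2.36 ± 0.34 (SE, adjusted p = 0.00128) with B6 64 and -2.76 ± 0.11 (adjusted p = 2.84e-08) without it. Of its 4 tested probesets 3 were called, all higher in D2, and the fourth differed by 0.10 and 0.05. These probesets can share sequence with related class I genes, and the 2 strains carry different class I haplotypes, so that the gene assignment is uncertain. The Illumina probe differed by 0.0622 (adjusted p = 0.120).

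Pnpt1, the mitochondrial polynucleotide phosphorylase, was at 5.23 ± 0.80 in B6 and 7.93 ± 0.13 in D2 and differed by -2.71 ± 0.30 (SE, adjusted p = 0.000200) with B6 64 and -3.05 ± 0.12 (adjusted p = 2.58e-08) without it, while its second probeset differed by -0.01 and 0.13. Tmem87a, a membrane protein of the Golgi, had values of 6.46, 6.27, 6.57, 8.10 and 6.56 in B6 females and 9.17, 9.17, 9.11, 9.36 and 9.32 in D2 females and differed by -2.43 ± 0.28 (SE, adjusted p = 0.000254) with B6 64 and -2.76 ± 0.083 (adjusted p = 3.12e-09) without it. Its Illumina probe differed by -1.35 (adjusted p = 2.35e-15). Pam, which amidates the C terminus of many neuropeptides, was at 7.31 ± 0.62 in B6 and 9.32 ± 0.16 in D2 and differed by -2.01 ± 0.24 (SE, adjusted p = 0.000333) with B6 64 and -2.26 ± 0.14 (adjusted p = 1.02e-06) without it. Cuedc1, a CUE domain gene, differed by -1.90 ± 0.28 (SE, adjusted p = 0.00145) with B6 64 and -2.21 ± 0.12 (adjusted p = 3.63e-07) without it, while its second probeset differed by -0.23 and -0.24. Bloc1s6, a subunit of the complex that forms lysosome-related organelles, differed by -1.88 ± 0.21 (SE, adjusted p = 0.000180) with B6 64 and -2.10 ± 0.097 (adjusted p = 9.25e-08) without it at 1 of 3 probesets, with the others at 0.07 and 0.10 and at 0.02 and -0.01. All 10 genes of this group had larger differences without B6 64, and so did the 10 higher in B6.

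Agreement between probesets of a gene was partial. Of the 439 genes, 198 had 1 tested probeset and 241 had several, and all of several probesets were called in 30. Probes that span a SNP between the strains had been masked by the authors. The study describes no masking for insertions or deletions. Which part of a transcript each probeset reads was not examined here.

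The strain differences of females were set beside those of the males on the same array type, which are other mice. In males, 767 probesets (3.95%) passed the threshold, 365 (1.88%) with higher values in B6 and 402 (2.07%) in D2. Of the 616 probesets called in females, 614 had the same sign in males and 480 (77.9%) were also called there, all in the same direction. Without B6 64, 821 of 822 had the same sign and 589 (71.7%) were called. Over all tested probesets the sign was shared at 74% and 74.8%. In the other direction, 254 of the 365 probesets higher in B6 males (69.6%) were called in females with B6 64 and 282 (77.3%) without it. Among the 402 higher in D2 males, these counts were 226 (56.2%) and 307 (76.4%). Calls lost by keeping B6 64 were thus more frequent on the D2 side.

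The sizes were alike in the sexes at the called probesets. Those higher in B6 had a median difference of 0.78 in females, 0.81 without B6 64 and 0.78 in males. Those higher in D2 had medians of -0.72, -0.79 and -0.82. The difference between the female and the male strain effect, tested as an interaction in limma over all 20 arrays, was called at 0 probesets (0.0%) with and without B6 64. An unadjusted p under 0.05 was reached at 347 probesets with it (1.79%) and at 325 without it (1.67%), and the lowest adjusted p was 1. The missing calls do not show that the effects were equal in the sexes.

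Only Acer2 and Ccdc117 were called in females with the opposite sign in males, and they are named after their values were seen. Acer2, an alkaline ceramidase of the Golgi, differed by -0.84 (adjusted p = 0.00425) with B6 64 and -0.85 (adjusted p = 0.00611) without it, and by 0.01 in males. Ccdc117, a coiled-coil protein gene, differed by -0.33 (adjusted p = 0.00685) and -0.33 (adjusted p = 0.0113), and by 0.06 in males. The male differences of both were close to 0.

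**Figure D4:**
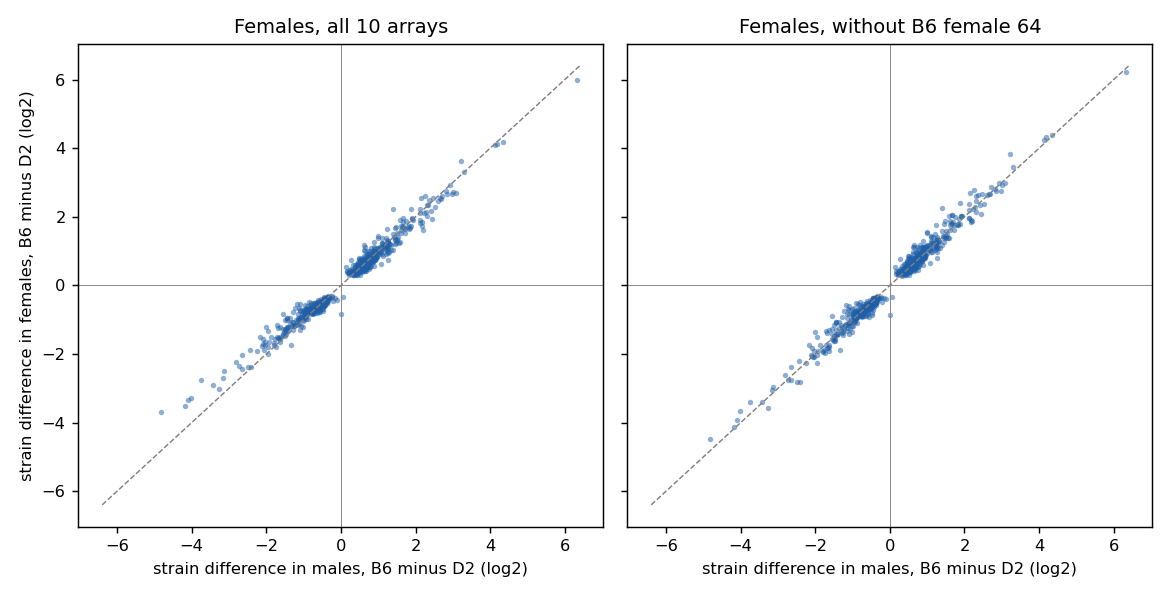
Strain difference in females (vertical axis) against that in males (horizontal axis), B6 minus D2 on the log2 scale, at the 616 probesets called in females with B6 64, with the female difference from all 10 arrays in the left panel and without B6 64 in the right panel. The points follow the dashed line of equal differences, and in the left panel 614 lie on the same side of 0 in both sexes.

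Illumina arrays of 12 males a strain gave a further set of mice and other probes, whose values are on a variance-stabilized scale and are not set against Affymetrix differences in size. Of 7712 genes measured on both array types, 10.7% were called on Illumina arrays. Of the 439 genes called in females, 314 were measured there, 247 had the same direction, and 166 were called, 149 of them in the same direction. Without B6 64, 424 of the 580 genes were measured, 325 had the same direction, and 195 of the 221 called did. Genes named here were not always among them. Kcnq5, Ptprg, Bloc1s6, Camk2n1, H2-D1, Pam, Aldoc, Gabrb1, Faah, Per3, Gsto1, Sc5d, Hspa1a, Glcci1 and Fam234b were not called on Illumina arrays. Of these, Ptprg, Bloc1s6, Camk2n1, H2-D1 and Fam234b had the opposite sign there. Tia1 and Tmod2 were called the other way. Ntrk3, Gprc5b and Pigz, called in females only without B6 64, were not called there either, and Pigz had the opposite sign.

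The other genes of the striatum and its pathways were taken from 39 lists, of which 575 different genes were tested. Of these 37 (6.43%) were called with B6 64 and 41 (7.13%) without it, against 4.07% and 5.38% of all genes. The lists were chosen with earlier results of these data known, so these shares cannot show whether list genes differ more often. With B6 64, 16 lists had no called gene. The median difference over all tested genes was -0.03 with B6 64, -0.03 without it and -0.01 in males. In each list with called genes these were a minority of its tested members. List members called only without B6 64 were named after their values were seen, except Slc1a2, and they are Gabrb2, Kcnj10, Syt2, Napa, Nnt and Sdhc.

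The list for medium spiny neurons had 23 tested genes with medians of 0.05 and 0.07, and 4 of its genes were called with higher values in B6 and 2 in D2, against 3 and 1 without B6 64. Bcl11b, a transcription factor of these neurons, had values of 10.98, 11.03, 10.91, 10.56 and 10.90 in B6 females and 10.13, 9.75, 9.87, 9.33 and 9.46 in D2 females. The difference was 1.17 ± 0.14 (SE, adjusted p = 0.000416) with B6 64 and 1.25 ± 0.14 (adjusted p = 0.000162) without it at 1 of 4 probesets. Scn4b, the beta-4 subunit of sodium channels, had values of 12.33, 12.32, 12.36, 11.88 and 12.22 in B6 females and 11.31, 11.39, 11.10, 11.12 and 11.27 in D2 females and differed by 0.98 ± 0.098 (SE, adjusted p = 9.46e-05) with B6 64 and 1.07 ± 0.075 (adjusted p = 3.18e-06) without it. The strains did not overlap at these probesets of either gene. The other tested probesets of Bcl11b were called in neither fit, at -0.07 to 0.14 and -0.03 to 0.14. Illumina probes also placed both genes higher in B6, Bcl11b by 0.57 (adjusted p = 0.00310) and Scn4b by 0.51 (adjusted p = 0.000243). Spink8, a protease inhibitor gene, was higher in D2, with -0.82 ± 0.13 (SE, adjusted p = 0.00232) with B6 64 and -0.85 ± 0.14 (adjusted p = 0.00271) without it.

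The remaining called members of this list fall outside the naming rule and are given after their values were seen. Rasd2, the striatum-enriched small GTPase Rhes, differed by 1.23 (adjusted p = 0.00269) with B6 64 and 1.41 (adjusted p = 0.000109) without it. Arpp19, a phosphoprotein that inhibits the phosphatase PP2A, differed by -0.61 (adjusted p = 0.00857) with B6 64 and -0.58 (adjusted p = 0.0163) without it, and Rxrg, a retinoid receptor, by 0.46 (adjusted p = 0.00926) with B6 64 and 0.48 (adjusted p = 0.0108) without it. The calls of Arpp19 and Rxrg were lost without B6 64. The lists of direct-pathway neurons (8 tested), indirect-pathway neurons (5) and striatal interneurons (12) had no called gene in either fit, with medians of 0.02, 0.21 and 0.03 with B6 64 and of 0.05, 0.21 and 0.03 without it.

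Complement C1q, the initiator of the classical complement pathway, is made by microglia in the brain. Its subunit C1qc had values of 8.78, 9.06, 8.76, 8.74 and 8.96 in B6 females and 7.46, 7.91, 7.73, 7.89 and 7.98 in D2 females. Every B6 female was above every D2 female and B6 64 was not apart, and the difference was 1.07 ± 0.10 (SE, adjusted p = 7.68e-05) with B6 64 and 1.10 ± 0.11 (adjusted p = 7.03e-05) without it. C1qb had values of 9.05, 9.38, 9.02, 9.27 and 9.25 in B6 females and 8.25, 8.44, 8.21, 8.36 and 8.58 in D2 females and differed by 0.83 ± 0.092 (SE, adjusted p = 0.000207) with B6 64 and 0.81 ± 0.099 (adjusted p = 0.000310) without it, while its second tested probeset did not follow, at -0.02 and -0.05. Illumina probes differed by 0.58 (adjusted p = 6.06e-09) for C1qc and 0.77 (adjusted p = 2.32e-09) for C1qb. The third subunit, C1qa, differed by 0.15 (adjusted p = 0.578) and 0.09 without B6 64. The other 9 of 12 tested microglia markers were not called, and the list medians were 0.15 and 0.10.

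Among receptors, GABA-A subunits differed in both directions. Gabra2, the alpha-2 subunit, had values of 8.04, 7.79, 8.08, 8.18 and 7.43 in B6 females and 9.22, 8.78, 9.15, 9.0 and 9.14 in D2 females and differed by -1.15 ± 0.14 (SE, adjusted p = 0.000318) with B6 64 and -1.22 ± 0.14 (adjusted p = 0.000148) without it, with all 3 probesets called, the others at -1.14 and -1.23 and at -1.07 and -1.16. Every D2 female was above every B6 female, and males differed by -1.22 (adjusted p = 5.42e-05). Gabrb1, the beta-1 subunit, differed by 1.11 ± 0.19 (SE, adjusted p = 0.00398) with B6 64 and 1.17 ± 0.20 (adjusted p = 0.00370) without it at 1 of 3 probesets, and that call was lost when any single 1 of B6 61, 62, 63 or 65 was left out (adjusted p = 0.0115 to 0.0145). Gabrb1 was not called in males, at 0.66 (adjusted p = 0.0328), or on Illumina arrays, at 0.08 (adjusted p = 0.707). Gabrb2 differed by 0.82 (adjusted p = 0.0133) with B6 64 and 0.93 (adjusted p = 0.00361) without it and was called only without it. The 9 tested subunits had medians of -0.09 and -0.01.

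Grin2b, the GluN2B subunit of the NMDA receptor, had values of 8.25, 8.23, 8.34, 7.76 and 8.02 in B6 females and 6.16, 6.3, 6.55, 5.69 and 6.07 in D2 females. All B6 females were above all D2 females, and the difference was 1.97 ± 0.15 (SE, adjusted p = 1.23e-05) with B6 64 and 2.06 ± 0.14 (adjusted p = 3.39e-06) without it. A second of its 3 probesets was called, at 0.80 and 0.89, the third was not, at -0.02 and -0.05, and Grin2b was the called gene among 14 ionotropic glutamate receptor subunits. Grm7, a presynaptic metabotropic receptor, was higher in D2, with values of 6.06, 5.82, 6.15, 7.22 and 6.1 in B6 females and 7.95, 7.94, 7.97, 7.55 and 7.51 in D2 females. B6 64 was the highest B6 array, and the difference was -1.51 ± 0.22 (SE, adjusted p = 0.00147) with B6 64 and -1.75 ± 0.12 (adjusted p = 2.36e-06) without it. The other 2 probesets of Grm7 were not called, at -0.12 and -0.04 and at 0.06 and 0.08, nor were the other 8 tested genes of that list.

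Of 29 potassium channel genes, Kcnq5 and Kcnj9 were called, and Kcnj10, the inward rectifier of astrocytes, differed by -0.56 (adjusted p = 0.0215) with B6 64 and -0.64 (adjusted p = 0.00601) without it. Of 35 G protein and RGS genes, Gnb1 was called, and Rgs20, a regulator that speeds the turning off of G proteins, which differed by 0.53 ± 0.094 (SE, adjusted p = 0.00502) with B6 64 and 0.47 ± 0.091 (adjusted p = 0.00713) without it at 1 of 2 probesets, the second at 0.30 and 0.27. The Rgs20 call was lost when any single 1 of B6 61, 63 or 65, or D2 71, 72 or 74 was left out. The adjusted p was then 0.0118 to 0.0176. The Rgs20 call was also lost in 1 fit of 20 arrays, and over all its limma alternatives the adjusted p reached 0.0609. In males Rgs20 differed by 0.56 and was not called (adjusted p = 0.136). Chrna4, a subunit of neuronal nicotinic receptors, was higher in D2, with -0.71 ± 0.10 (SE, adjusted p = 0.00133) with B6 64 and -0.75 ± 0.11 (adjusted p = 0.000840) without it, and the Illumina probe gave -0.25 (adjusted p = 4.05e-06). The second Chrna4 probeset was not called, at -0.20 and -0.21. Faah, the enzyme that breaks down anandamide, differed by -0.46 ± 0.080 (SE, adjusted p = 0.00465) with B6 64 and -0.48 ± 0.084 (adjusted p = 0.00404) without it, with its second probeset at -0.32 and -0.33. The Faah call was lost when any single 1 of B6 62, 63 or 65, or D2 73 or 74 was left out. The adjusted p was then 0.0103 to 0.0160. The Faah call was also lost with quantile normalization added and in 1 fit of 20 arrays. Over all its limma alternatives the adjusted p reached 0.0622. Faah was not called in males, at -0.49 (adjusted p = 0.139), or on Illumina arrays, at -0.23 (adjusted p = 0.0716).

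Of 26 synaptic vesicle genes, Sv2c, a vesicle glycoprotein enriched in the basal ganglia, was called with B6 64. Its values were 5.69, 5.77, 5.81, 6.31 and 5.41 in B6 females and 7.79, 6.97, 7.45, 6.6 and 6.43 in D2 females, and it differed by -1.25 ± 0.25 (SE, adjusted p = 0.00886) with B6 64 and -1.38 ± 0.24 (adjusted p = 0.00421) without it. The call was lost when any single 1 of B6 61, 62, 63 or 65, or D2 71, 72, 73 or 74 was left out (adjusted p = 0.0103 to 0.0284). Without B6 64 the calcium sensor Syt2, at -0.41 (adjusted p = 0.0114) with B6 64 and -0.46 (adjusted p = 0.00489) without it, and the SNARE recycling factor Napa, at -0.36 (adjusted p = 0.0433) with B6 64 and -0.45 (adjusted p = 0.00237) without it, were called as well, all higher in D2. Of 24 neuropeptide genes, Pam and Scg5 were called. Scg5, the chaperone of the prohormone convertase PC2, had values of 11.30, 11.44, 11.33, 12.15 and 11.23 in B6 females and 12.41, 12.44, 12.31, 12.37 and 12.43 in D2 females and differed by -0.90 ± 0.15 (SE, adjusted p = 0.00272) with B6 64 and -1.07 ± 0.063 (adjusted p = 7.89e-07) without it. Its call was lost without B6 62 (adjusted p = 0.0107), and the Illumina probe gave -1.04 (adjusted p = 9.07e-11). Both called peptide-processing genes were higher in D2, and the peptide precursors Penk and Tac1 were not called.

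Single enzymes of detoxification differed between the strains. Prdx2, a peroxiredoxin that reduces peroxides, had values of 9.27, 9.39, 9.25, 8.83 and 9.22 in B6 females and 7.12, 7.07, 7.11, 6.95 and 7.13 in D2 females and differed by 2.1 ± 0.095 (SE, adjusted p = 1.74e-07) with B6 64 and 2.21 ± 0.065 (adjusted p = 2.73e-09) without it, 4.33-fold with B6 64. The B6 females were all above the D2 females by a wide gap, and the Illumina probe differed by 1.09 (adjusted p = 6.41e-12). Glo1, which clears methylglyoxal, was higher in D2, with values of 9.5, 9.77, 9.47, 10.36 and 9.68 in B6 females and 10.71, 10.72, 10.48, 10.79 and 10.75 in D2 females. It differed by -0.93 ± 0.15 (SE, adjusted p = 0.00223) with B6 64 and -1.09 ± 0.087 (adjusted p = 1.02e-05) without it, with all 3 probesets called and an Illumina difference of -0.97 (adjusted p = 2.67e-11). Gsto1, a glutathione transferase, differed by 0.42 ± 0.078 (SE, adjusted p = 0.00659) with B6 64 and 0.42 ± 0.084 (adjusted p = 0.0102) without it, and its call was lost when any single 1 of B6 61, 62, 64 or 65, or D2 71, 73, 74 or 75 was left out (adjusted p = 0.0102 to 0.0237). Nnt, the mitochondrial transhydrogenase that makes NADPH, differed by -0.31 (adjusted p = 0.0235) with B6 64 and -0.36 (adjusted p = 0.00576) without it. A deletion in this gene is known in C57BL/6J.

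Alad, an early enzyme of heme synthesis, had values of 7.99, 8.27, 7.96, 9.11 and 8.09 in B6 females and 9.47, 9.62, 9.45, 9.49 and 9.49 in D2 females. D2 was higher in every array, and the difference was -1.22 ± 0.18 (SE, adjusted p = 0.00165) with B6 64 and -1.43 ± 0.076 (adjusted p = 3.19e-07) without it. Its second probeset was called at -0.62 and -0.64, and the Illumina probe gave -1.10 (adjusted p = 3.62e-10). Sc5d, a late enzyme of cholesterol synthesis, had values of 9.10, 9.36, 9.22, 8.86 and 9.32 in B6 females and 7.17, 7.40, 7.08, 7.14 and 7.30 in D2 females and differed by 1.95 ± 0.100 (SE, adjusted p = 3.18e-07) with B6 64 and 2.03 ± 0.084 (adjusted p = 3.35e-08) without it, at 2 of 3 probesets. The other called probeset was at 0.49 and 0.52, the third at 0.07 and 0.08, and the Illumina probe at 0.0600 (adjusted p = 0.550). The other 13 tested cholesterol genes and the other 6 heme genes were not called. Hspa1a, the inducible HSP70, differed by 0.58 ± 0.11 (SE, adjusted p = 0.00580) with B6 64 and 0.52 ± 0.10 (adjusted p = 0.00836) without it. Its call was lost when any single 1 of B6 61, 62, 63 or 65, or D2 71, 72, 74 or 75 was left out. The adjusted p was then 0.0106 to 0.0193. Hspa1a was not called in males, at 0.54 (adjusted p = 0.0231), or on Illumina arrays, at 0.48 (adjusted p = 0.0421).

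Other lists held single calls. Aldoc, the aldolase of astrocytes, differed by 0.49 ± 0.060 (SE, adjusted p = 0.000416) with B6 64 and 0.49 ± 0.065 (adjusted p = 0.000575) without it at 1 of 2 probesets, and the second was at 0.12 and 0.13. Slc1a2, the main glutamate transporter of astrocytes, was at 7.92 ± 0.51 in B6 and 9.15 ± 0.64 in D2 at 1 of 3 probesets, which differed by -1.23 ± 0.30 (SE, adjusted p = 0.0313) with B6 64 and -1.44 ± 0.27 (adjusted p = 0.00649) without it and was called only without B6 64. The other 2 were called in neither fit, at -0.11 and -0.20 and at 0.06 and 0.06. The clock gene Per3 differed by -1.18 ± 0.17 (SE, adjusted p = 0.00123) with B6 64 and -1.28 ± 0.16 (adjusted p = 0.000441) without it at 1 of 4 probesets with B6 64, and another of its probesets had the opposite sign, at 0.71 (adjusted p = 0.0138) and, called only without B6 64, 0.80 (adjusted p = 0.00336). Among 21 actin regulators, Pfn1, the actin monomer binder profilin, differed by -1.14 ± 0.17 (SE, adjusted p = 0.00149) with B6 64 and -1.32 ± 0.090 (adjusted p = 2.41e-06) without it. Tmod2, which caps the slow-growing filament end in neurons, differed by 0.61 ± 0.085 (SE, adjusted p = 0.00104) with B6 64 and 0.61 ± 0.093 (adjusted p = 0.00155) without it at 1 of 5 probesets, with an Illumina difference of -0.32 (adjusted p = 5.9e-05) in the opposite direction. Sdhc, a subunit of respiratory complex II, differed by -0.25 (adjusted p = 0.142) with B6 64 and -0.33 (adjusted p = 0.00518) without it.

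No gene was called in the lists of oligodendrocytes (13 tested, medians 0.13 and 0.09), blood vessels (14), cortex (12), thalamus and hypothalamus (13), dopamine and monoamine signalling (12), immediate early genes (17), interferon-responsive genes (10), sex hormone receptors and partners (6) or proteasome subunits (24). These 9 lists had no call without B6 64 either. Markers of the neighbouring cortex and thalamus had medians of -0.06 and 0.04 with B6 64 and of -0.07 and 0.02 without it. These medians do not show the spread within a strain. The thalamus marker Tcf7l2 ran from 6.44 to 8.83 in B6 and 6.17 to 8.91 in D2 females. Another, Prkcd, ran from 8.22 to 9.38 and 7.90 to 9.75, and the cortex marker Neurod6 from 8.13 to 8.90 and 8.28 to 9.41. The 3 genes of the blood list that had values were below the filter on mean value.

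A few genes were called only when B6 64 was left out although the difference was large. Ntrk3, the receptor of neurotrophin-3, was the largest, with values of 4.87, 4.81, 5.10, 7.39 and 5.70 in B6 females and 8.47, 8.02, 7.76, 6.57 and 7.24 in D2 females. The 4 other B6 females were below the D2 females, B6 64 was not, and the difference was -2.04 ± 0.48 (SE, adjusted p = 0.0249) with B6 64 and -2.49 ± 0.33 (adjusted p = 0.000562) without it. Fam126b, a hyccin family gene, differed by 1.38 ± 0.32 (SE, adjusted p = 0.0249) with B6 64 and 1.72 ± 0.18 (adjusted p = 0.000112) without it, and Gprc5b, an orphan receptor, by -1.37 ± 0.28 (SE, adjusted p = 0.0104) with B6 64 and -1.64 ± 0.18 (adjusted p = 0.000146) without it. For Pigz, a mannosyltransferase of membrane anchors, values were 7.19, 7.17, 7.13, 8.56 and 7.24 in B6 females and 8.56, 8.82, 8.29, 8.97 and 9.08 in D2 females. B6 64 lay inside the D2 range while the other B6 females were at 7.13 to 7.24, and the difference was -1.29 ± 0.26 (SE, adjusted p = 0.0104) with B6 64 and -1.56 ± 0.14 (adjusted p = 2.55e-05) without it. Ildr2, a membrane protein of the immunoglobulin family, differed by -1.24 ± 0.26 (SE, adjusted p = 0.0123) with B6 64 and -1.45 ± 0.21 (adjusted p = 0.00127) without it. In each of these 5 genes the other tested probesets were called in neither fit. They were at -0.10 to 0.03 and -0.10 to -0.01 in Ntrk3, at -0.07 to 0.55 and -0.02 to 0.80 in Fam126b, at -0.15 and -0.24 in Gprc5b and at -0.004 to 0.13 and 0.06 to 0.14 in Pigz. In Ildr2 the second probeset had the opposite sign, at 0.30 and 0.36. In males the probesets called without B6 64 differed by -2.91, 1.46, -1.54, -1.49 and -1.47, in the order given.

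The share of called genes varied between chromosomes, as placed by the gene order of the mouse assembly GRCm38.p6, which was not tested. On chromosome 1, 47 of 627 tested genes (7.50%) were called, and 58 (9.25%) without B6 64. Chromosome 4 followed at 5.79% and 7.98%. Chromosome 10 was at 1.90% and 2.47%, and 4 of 343 genes on the X chromosome (1.17%) were called, 5 (1.46%) without B6 64. Over all genes these shares were 4.07% and 5.38%, and males had 7.97% on chromosome 1 and 2.33% on the X chromosome.

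Neighbouring called genes formed 34 runs of at least 2 genes, with 71 genes, and 55 runs with 116 genes without B6 64. Neighbours are next to each other among tested genes, and untested genes between them were skipped. More called genes give more runs, and the number that arises by chance was not worked out. With B6 64 both runs of at least 3 genes lay on chromosome 6, and without it there were 6 such runs. In the first, Rpa3, a subunit of replication protein A, and Umad1 were higher in D2. Rpa3 differed by -0.65 ± 0.11 (SE, adjusted p = 0.00427) with B6 64 and -0.75 ± 0.079 (adjusted p = 9.9e-05) without it, and Umad1 by -0.74 ± 0.089 (SE, adjusted p = 0.000336) with B6 64 and -0.76 ± 0.094 (adjusted p = 0.000329) without it at 1 of 2 probesets. Next to them, Glcci1, a glucocorticoid-induced gene, and Ica1, an autoantigen of islet cells that is also made in brain, were higher in B6. Neighbours thus ran in opposite directions. Without B6 64 this run was shorter and held only Rpa3 and Umad1. In males, Rpa3 was called, and Umad1, Glcci1 and Ica1 were not (adjusted p = 0.0262, 0.177 and 0.0118). Glcci1 differed by 0.35 ± 0.066 (SE, adjusted p = 0.00774) with B6 64 and 0.32 ± 0.068 (adjusted p = 0.0135) without it, and Ica1 by 0.42 ± 0.068 (SE, adjusted p = 0.00266) with B6 64 and 0.45 ± 0.069 (adjusted p = 0.00178) without it at 1 of 2 probesets. Calls within this run were lost for Rpa3 when any single 1 of B6 61, 62, 63 or 65, or D2 71, 72 or 75 was left out (adjusted p = 0.0124 to 0.0156), for Glcci1 when any single 1 of B6 61, 62, 63, 64 or 65, or D2 71, 72, 74 or 75 was left out (adjusted p = 0.0133 to 0.0254) and for Ica1 without B6 62 (adjusted p = 0.0102). The Glcci1 call was also lost in 1 fit of 20 arrays.

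In the other run, Fam234b, Grin2b and Atf7ip were all higher in B6. In males Grin2b and Atf7ip were called, and Fam234b, at 0.54, was not (adjusted p = 0.0400). Fam234b differed by 0.55 ± 0.077 (SE, adjusted p = 0.00105) with B6 64 and 0.58 ± 0.078 (adjusted p = 0.000641) without it at 1 of 3 probesets, and Atf7ip, a partner of the histone methyltransferase SETDB1, by 0.51 ± 0.097 (SE, adjusted p = 0.00730) with B6 64 and 0.59 ± 0.073 (adjusted p = 0.000324) without it at 1 of 2. The Atf7ip call was lost when any single 1 of B6 61, 62, 63 or 65, or D2 71, 72, 74 or 75 was left out (adjusted p = 0.0172 to 0.0237). On chromosome 7 the imprinted neighbours Ube3a, a ubiquitin ligase, and Snhg14, whose transcript reaches the antisense strand of Ube3a, ran in opposite directions. Ube3a differed by -0.40 ± 0.072 (SE, adjusted p = 0.00562) with B6 64 and -0.36 ± 0.071 (adjusted p = 0.00855) without it at 1 of 5 probesets. All 5 probesets of Ube3a were lower in B6, and the call was lost when any single 1 of B6 61, 62 or 65, or D2 71, 72, 74 or 75 was left out (adjusted p = 0.0120 to 0.0211).

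Markers of choroid plexus and ependyma, the epithelium of the ventricles next to the striatum, varied widely within both strains. The mean over 10 such genes was 6.43, 8.59, 7.72, 9.0 and 8.76 in B6 females and 8.60, 8.87, 6.28, 9.37 and 9.37 in D2 females. Ttr, the transthyretin of the choroid plexus, was at 8.74, 13.85, 13.20, 14 and 14.10 in B6 and 13.90, 13.95, 7.05, 14.21 and 14.21 in D2. B6 61 and D2 73 were therefore low, 1 array in each strain, and B6 64 had the highest mean of the B6 females. None of the 10 genes was called, and their median difference was -0.41 with B6 64 and -0.62 without it. Without B6 61 and D2 73, a choice made after seeing the data, 325 probesets were called in place of 616, and 603 in place of 822 without B6 64. With the choroid mean as a covariate, also chosen after seeing the data, 747 and 967 were called. Among the 51 called named genes, 16 missed the threshold without those 2 arrays and with B6 64, at adjusted p of 0.0115 to 0.0495. They were Cap1, Stab2, Kcnj9, Gabrb1, Grm7, Rgs20, Sv2c, Scg5, Faah, Gsto1, Alad, Ube3a, Rpa3, Glcci1, Ica1 and Atf7ip, and Cap1, Kcnj9, Grm7 and Alad lost the call under no other alternative. The part of this tissue in the strain differences was not tested.

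**Figure D5:**
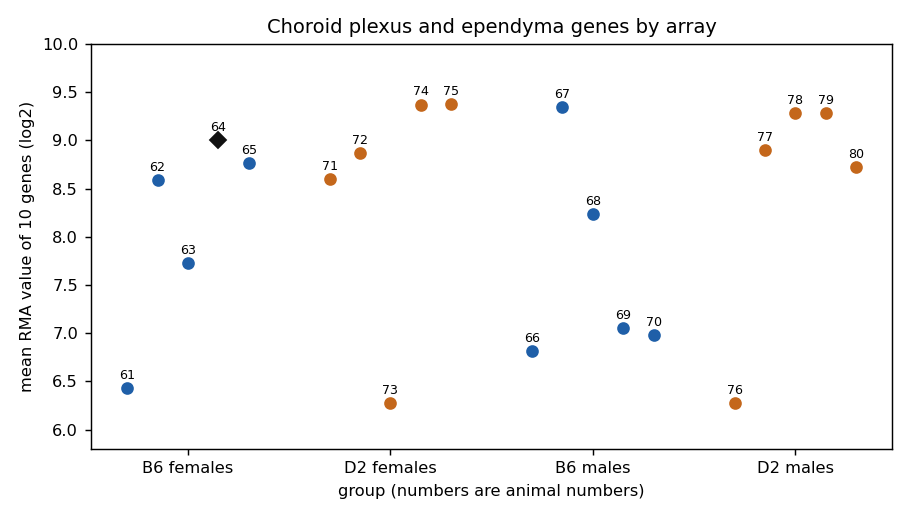
Mean log2 value of 10 choroid plexus and ependyma markers (vertical axis) in each of the 20 Affymetrix arrays, 1 point per mouse, by strain and sex. Values of females run from 6.43 to 9.0 in B6 and from 6.28 to 9.37 in D2, with B6 61 and D2 73 the lowest of their groups.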

How the data were processed

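The authors deposited Affymetrix values on a log2 scale, computed with RMA from the perfect-match probes left after probes over a SNP or with more than 1 alignment had been masked. The MAS5 5.0 calls named in the submitters' processing notes were not used. For the Illumina arrays, processed in GenomeStudio, the authors deposited normalized values on a variance-stabilized scale close to log2. All 14185 Illumina probes with values were tested, and the comparison here applied no filter on detection. Probes over SNPs were not removed there. The authors' bead signal intensities were not used.

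Affymetrix probesets other than controls with values on all arrays were kept in the upper 50% by mean over all 20 arrays. The strains were compared with lmFit and eBayes of limma 3.58.1 (R 4.3.3, statmod 1.5.0), without covariates, as 5 against 5 and as 4 against 5 without B6 64, and differences are B6 minus D2. P-values were adjusted by the Benjamini-Hochberg method over all probesets tested and called under 0.01. For calls, each gene was read from the probeset whose p was lowest in the 5 against 5 fit of females. That probeset also served in the other Affymetrix fits. The 2417 tested probesets without a gene symbol and 160 with several were not assigned. Males were fitted alike, and the interaction of strain and sex over all 20 arrays. Gene order came from RefSeq on GRCm38.p6, and the build used for the masking of probes is not given in the sources used here.

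The genes named are up to 10 with the largest difference in each direction among those called in both fits, up to 3 called members of each list, the 6 largest called only without B6 64, the genes of the 2 longest runs, sex genes and striatal markers. The arrays, lists and rules were chosen with earlier results of these data known. Alternatives covered scaling, filters, variance models, array weights, thresholds, the choice of probeset and leaving out each array. The fits were tested on simulated data with known differences.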

Additional observations from a re-analysis of the deposited data

Results flagged for a closer look

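In the named genes and summary values, each group of 5 was searched for an array whose gap to its nearest neighbour took up an unusual share of the whole range, above the Dixon value of 0.71. Chance gives this in about 1 of 20 groups. That rate is no yardstick here, since the genes were chosen for strain differences, some for being called only without B6 64, and that array was known to lie between the strains. The counts are therefore a description, with 25 cases in 128 groups. In 18 of the 22 cases among named genes the array was B6 64, and in the other 4 it was B6 62, D2 72 or D2 73.

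For genes higher in D2, the share of the range between B6 64 and the next B6 female was 0.906 in Cap1, 0.901 in Stab2, 0.899 in Kcnj9, 0.836 in Tmem87a, 0.824 in Bloc1s6, 0.822 in Cuedc1, 0.772 in Scg5, 0.769 in H2-D1, 0.764 in Grm7, 0.730 in Alad, 0.721 in Rpa3 and 0.923 in Pigz, which was called only without B6 64. For genes higher in B6 it was 0.826 in Tia1, 0.762 in Ptprg, 0.743 in Gabrb1, 0.742 in Kcnq5, 0.723 in Bcl11b and 0.768 in Fam126b, which was called only without B6 64. In each of these 18 genes B6 64 was displaced toward D2. Its median position between the strains had a share of 0.902.

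Among the other arrays, D2 73 was the highest D2 female in Sox11 (0.726) and the lowest in Glo1 (0.742), its median position between the strains lay apart (0.764), and its mean of choroid plexus genes was the lowest (0.749). B6 62 was the lowest B6 female in Aldoc (0.800). D2 72 was the highest D2 female in Alad (0.765). No probeset separated the strains in opposite directions in the 2 sexes.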

How the results depend on the processing

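The counts of calls rested on the filter, the threshold and single arrays. With B6 64 kept, 978 probesets were called with no filter on low values, 235 in the upper 25% by mean, 1133 at an adjusted p under 0.05 and 325 without the 2 arrays lowest in choroid plexus genes. The fits that gained probesets without a filter tested more of them. Without B6 64 there were 1406 probesets at an adjusted p under 0.05 and 514 at 1.5-fold or more. Genes fell from 439 to 289 when each was read from its probeset with the highest mean, and to 236 without the 2 low choroid arrays. Leaving out 1 array at a time gave 376 (without B6 62) to 822 (without B6 64) probesets, 271 to 580 genes in the same 2 cases, and 578 to 777 probesets in males. Added quantile normalization, median centring, a trended variance, array weights and 1 fit of 20 arrays gave 599 to 869 probesets. The position of B6 64 was 0.488 at probesets differing by at least 2 on the log2 scale and 0.560 on log2 values, against 0.534. Of 51 called named genes, 34 were called under all of their 18 or 19 alternatives, and 17 lost the call under at least 1. The reversed differences were those of Ppp1r1b, which was not called, at 0.031 without B6 65 and 0.012 without D2 71. Leaving out 1 array took it down to -0.066 (without D2 73), and leaving out B6 61 and D2 73 together to -0.093. On Illumina arrays the replicate block gave 893 called probes against 1226, with correlations of -0.42 to 0.28 between same-numbered arrays, so that the numbers were not read as pairs. No paired analysis was possible for the Affymetrix arrays because the strains share no animal numbers. The cause of these changes was not tested.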
